A study of Homo sapiens with 6 samples.

Results

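The Iroquois (IRX) and ZIC genes encode transcription factors that pattern the early embryo, and 9 of them were followed here: IRX1, IRX2, IRX3, IRX4, IRX5, ZIC1, ZIC2, ZIC4 and ZIC5. They were taken by gene symbol from a raw count table of 53712 genes, and all 9 had a row in it. The cells were H9, an established human embryonic stem cell line, held in PXGL medium, which the labels describe as naive. In 1 arm the cells received 25 nM of ASO-L1, an antisense oligonucleotide against the LINE-1 retrotransposon, and in the control arm 25 nM of the sense oligonucleotide SO-L1. There were 3 libraries of poly(A) RNA in each arm, taken 48 hours after transfection. Both arms also received trans-ISRIB, emricasan and the ROCK inhibitor Y-27632, removed at 24 hours, and the cells were not sorted, so transfected and untransfected cells were measured together. The design holds 1 cell line and no untransfected or unrelated-oligonucleotide control, and LINE-1 RNA itself was not analysed here. The labels do not state that libraries of an arm came from separate cultures, and p-values here therefore refer to library-to-library spread, possibly technical in part or whole.

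IRX proteins carry a homeodomain of the three-amino-acid-loop-extension (TALE) class and mostly repress their targets; they set borders in the neural plate, heart and limb. Their genes lie in a pair of clusters, IRX1, IRX2 and IRX4 on chromosome 5 and IRX3, IRX5 and IRX6 on chromosome 16, and neighbours often share enhancers. ZIC proteins bind DNA through zinc fingers related to those of the GLI factors of Hedgehog signalling, and act in the neural plate, neural crest and cerebellum. ZIC genes stand head to head in pairs, ZIC1 with ZIC4 on chromosome 3 and ZIC2 with ZIC5 on chromosome 13. ZIC2 is also known as a factor of pluripotent cells.

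After ASO-L1, ZIC1 and IRX5 rose from near the limit of detection, and no member was called lower. ZIC1 went from 0.121 ± 0.0856 to 1.07 ± 0.627 CPM (counts scaled to a common library total, normalised by trimmed mean of M values; SD, n = 3 libraries) and IRX5 from 0.278 ± 0.0197 to 1.53 ± 1.07 CPM. Of the 9 members, 8 had enough reads to be tested (ZIC4 did not), 2 were called higher and 0 lower by edgeR's quasi-likelihood test at a Benjamini-Hochberg adjusted p under 0.05. Over all 16873 genes tested, 18% were called higher and 15.7% lower, 33.7% in either direction. The median log2 fold change of the 8 tested members was 0.33, against -0.01 for all genes tested. ZIC1 and IRX5 had enough reads only in ASO-L1, so they could be tested only if higher there, which raises the members' median. More transcript per cell and more cells carrying it cannot be told apart in bulk RNA.

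**Figure D1:**
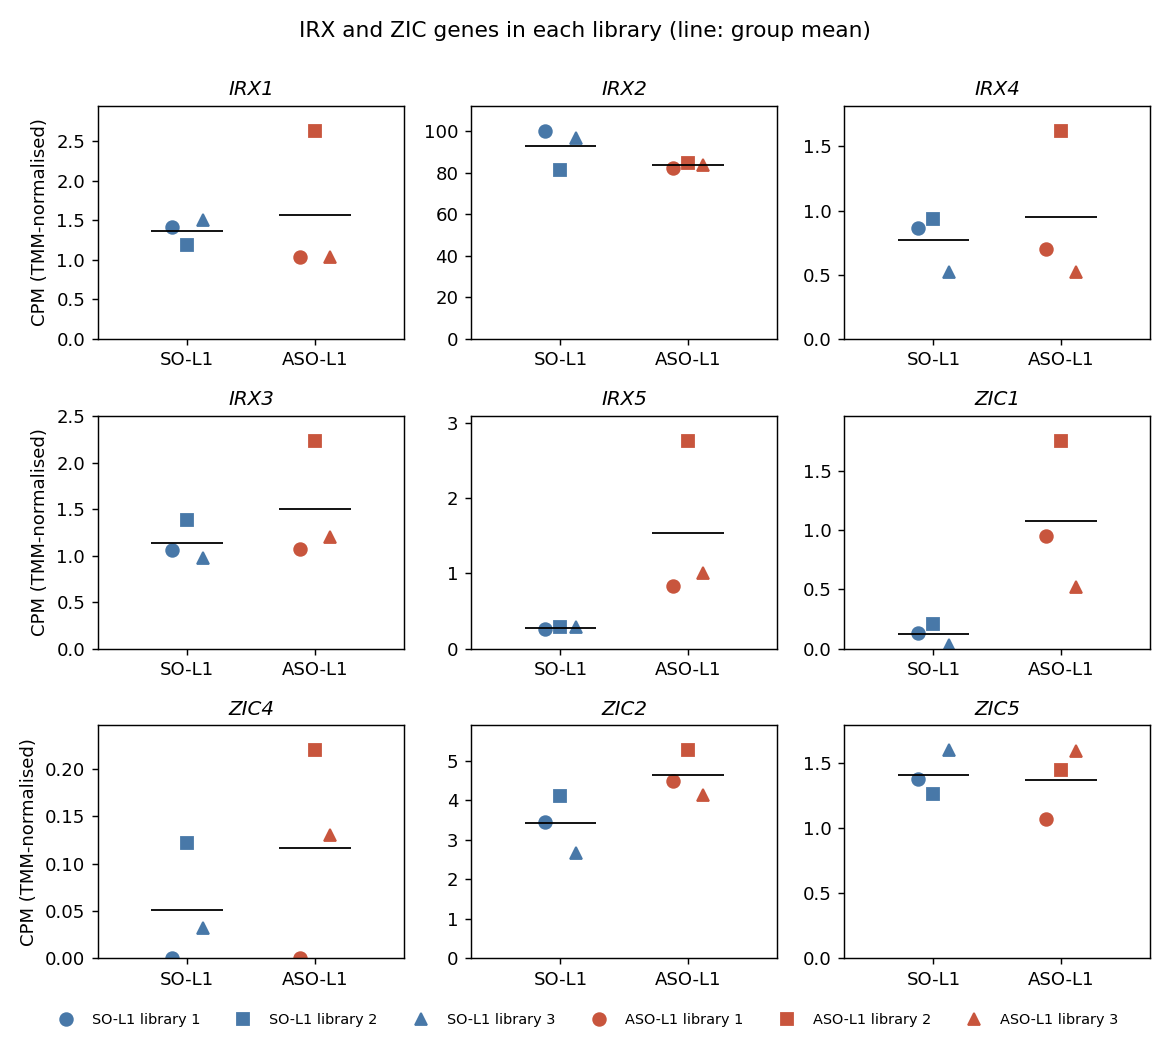
CPM of each of the 9 genes in every library, each panel from 0 on its own scale, with SO-L1 in blue, ASO-L1 in red, 1 symbol per replicate number and a line at the group mean. ZIC1, IRX5 and ZIC2 are the panels in which all ASO-L1 libraries lie above all SO-L1 libraries, and ASO-L1 library 2 is the highest of the 6 in 7 of the 9 panels.

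The sequences just upstream of 3 of these genes are shown because they contrast a gene that rose from almost nothing (ZIC1), its expressed paralogue (ZIC2) and the most abundant member (IRX2). Each is the 250 bases before the annotated start in RefSeq (build GRCh38.p14), 5′ to 3′ on the gene's strand, with CpG dinucleotides in capitals.
ZIC1 chr3:147409115-147409364, plus strand: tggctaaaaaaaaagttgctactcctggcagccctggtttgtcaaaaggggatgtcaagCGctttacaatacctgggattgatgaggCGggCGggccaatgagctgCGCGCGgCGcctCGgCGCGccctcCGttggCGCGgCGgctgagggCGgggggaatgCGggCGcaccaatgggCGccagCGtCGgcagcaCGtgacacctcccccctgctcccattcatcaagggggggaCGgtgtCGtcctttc
ZIC2 chr13:99981534-99981783, plus strand: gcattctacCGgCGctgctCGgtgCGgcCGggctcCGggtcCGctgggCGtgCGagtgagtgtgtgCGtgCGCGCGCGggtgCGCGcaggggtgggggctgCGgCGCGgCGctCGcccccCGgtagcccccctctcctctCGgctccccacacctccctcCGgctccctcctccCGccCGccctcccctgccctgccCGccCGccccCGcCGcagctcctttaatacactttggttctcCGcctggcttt
IRX2 chr5:2751678-2751927, minus strand: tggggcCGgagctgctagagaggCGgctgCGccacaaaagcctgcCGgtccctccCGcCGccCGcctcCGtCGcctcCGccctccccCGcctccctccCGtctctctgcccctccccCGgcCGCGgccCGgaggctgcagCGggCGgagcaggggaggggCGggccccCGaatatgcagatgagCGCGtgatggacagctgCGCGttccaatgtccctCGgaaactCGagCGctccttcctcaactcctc
All of the 3 are rich in CpG: 23 CpG in the ZIC1 window, 31 in ZIC2 and 27 in IRX2, against a median of 11 over 35114 promoter windows of this length. ZIC1's window holds the CCAAT box (CCAAT or its reverse complement) 2 times and the GC box GGGCGG (either strand) 2 times; ZIC2's holds 0 and 4, and IRX2's 1 and 4. CCAAT occurs in 32% and GGGCGG in 42.6% of all such windows. RefSeq windows were matched for 7 of the 9 members, 14 in all. TATAAA (10.7% of all windows) and the Iroquois motif ACANNTGT (4.71%) occur in none of these 14 on either strand.

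ZIC1 had 4, 5 and 1 reads in SO-L1 libraries 1, 2 and 3, and 23, 40 and 16 in the ASO-L1 libraries. In CPM these were 0.128, 0.203 and 0.0326 against 0.949, 1.75 and 0.519. Every ASO-L1 library lay above every SO-L1 library, the highest being ASO-L1 library 2. The log2 fold change was 3.12 ± 0.63 (SE; 95% interval 1.73 to 4.52), with an edgeR adjusted p of 0.00508. Summed over libraries, 10 reads stood against 79, a depth-corrected ratio of 8.78 with an exact 95% interval of 4.53 to 19.0 that covers counting error only. The call was kept without any single library (adjusted p up to 0.0340 without SO-L1 library 1), but not when replicate 1 was left out of both groups (0.0616).

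ZIC4, the divergent partner of ZIC1, had 0, 3 and 1 reads in the SO-L1 libraries and 0, 5 and 4 in the ASO-L1 libraries. With 13 reads in all it failed the filter on low counts, and its read ratio of 2.50 had an interval of 0.698 to 11.1. At this depth the interval holds both no change and a change as large as that of ZIC1. In the GENCODE v29 annotation, ZIC1 overlaps the ZIC4 gene on the opposite strand, and whether the authors counted by strand is not given in the sources used here.

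ZIC2 was the most abundant ZIC member, with 60.6% to 72.1% of the ZIC members' reads in each library. Its levels were 3.46, 4.11 and 2.68 CPM in SO-L1 and 4.50, 5.26 and 4.12 CPM in ASO-L1. The groups did not overlap, although the highest SO-L1 library and the lowest ASO-L1 library were almost level. Among all genes tested, 25.8% had every ASO-L1 library above every SO-L1 library and 25.1% every one below. The log2 fold change of ZIC2 was 0.44 ± 0.19 (95% interval 0.03 to 0.86), and its edgeR adjusted p of 0.0922 missed the threshold. With the replicate number as a block it passed (0.45, adjusted p = 0.0193), in a fit that called 45.7% of all genes. It also passed without SO-L1 library 2 (0.58, adjusted p = 0.0465).

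ZIC5, the head-to-head neighbour of ZIC2, stood at 1.38, 1.26 and 1.60 CPM in SO-L1 and 1.07, 1.45 and 1.59 CPM in ASO-L1. The groups overlapped throughout, and the log2 fold change was -0.04 ± 0.24 (95% interval -0.57 to 0.48; edgeR adjusted p = 0.909). The interval leaves room for the estimate seen in ZIC2.

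IRX5, which acts in heart repolarisation gradients and craniofacial development, had 8, 7 and 9 reads in SO-L1 and 20, 63 and 31 in ASO-L1. That is 0.256, 0.285 and 0.294 CPM against 0.825, 2.76 and 1.01. The SO-L1 libraries were nearly equal, and the ASO-L1 libraries all lay above them, library 2 well above the other two. The log2 fold change was 2.42 ± 0.52 (95% interval 1.27 to 3.56; edgeR adjusted p = 0.00675). It was 1.72 without ASO-L1 library 2 and still called (adjusted p = 0.00467). The summed reads, 24 against 114, gave a ratio of 5.28 (3.38 to 8.57, counting error only).

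ZIC1 and IRX5 passed the filter only through their ASO-L1 libraries: in neither gene did any SO-L1 library reach the level of 0.364 CPM that the filter asks of 3 libraries. Such a gene had to differ to be tested at all. Of 161 genes with that history, 130 were called higher (80.7%), so the call by itself sets neither gene apart. Without the filter both were still called (log2 fold changes of 3.11 for ZIC1 and 2.41 for IRX5), with 18.3% of 33437 genes called. There ZIC4 had a log2 fold change of 1.2 ± 1.15 (edgeR adjusted p = 0.537).

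IRX3, the neighbour of IRX5 and a gene linked to energy balance through enhancers within FTO, had a smaller estimate. It stood at 1.06, 1.38 and 0.979 CPM in SO-L1 and 1.07, 2.24 and 1.201 in ASO-L1. Only ASO-L1 library 2 lay outside the SO-L1 range. The log2 fold change was 0.39 ± 0.31 (95% interval -0.30 to 1.09; edgeR adjusted p = 0.354), and 0.02 without ASO-L1 library 2. IRX6, the remaining gene of that cluster and not among the 9, had 3, 10 and 0 reads in SO-L1 and 7, 22 and 12 in ASO-L1. The groups overlapped, and its log2 fold change of 1.77 ± 0.85 missed the threshold (edgeR adjusted p = 0.131). It passed with the replicate block (0.0139), without a filter (0.0106) and without SO-L1 library 2 (0.0284).

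IRX2 held nearly all of the IRX signal, from 90.2% to 96.7% of the IRX members' reads in each library. Its levels were 100.3, 81.5 and 96.9 CPM in SO-L1 and 82.3, 84.7 and 84.0 CPM in ASO-L1. The ASO-L1 libraries lay close together, inside the SO-L1 range. The log2 fold change was -0.15 ± 0.08 (95% interval -0.33 to 0.03; edgeR adjusted p = 0.177). SO-L1 library 2 decided the call: without it IRX2 was called lower, at -0.24 (adjusted p = 0.0285). With replicate 2 left out of both groups it was also called lower (-0.25, adjusted p = 3.0e-04).

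IRX1 and IRX4, the other genes of the chromosome 5 cluster, were low. IRX1 stood at 1.41, 1.18 and 1.501 CPM in SO-L1 and 1.03, 2.63 and 1.04 in ASO-L1. IRX4, a ventricular chamber factor, stood at 0.864, 0.936 and 0.522 CPM against 0.702, 1.62 and 0.519. In both genes ASO-L1 library 2 was the highest of the 6 and the other ASO-L1 libraries were at or below most controls. The log2 fold changes were 0.17 ± 0.36 for IRX1 (95% interval -0.63 to 0.96) and 0.26 ± 0.44 for IRX4 (-0.70 to 1.23), with edgeR adjusted p of 0.744 and 0.664. Both turned negative without ASO-L1 library 2, at -0.40 and -0.34.

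ASO-L1 library 2 was the highest of the 6 libraries for 7 of the 9 members, all except IRX2 and ZIC5. It was the highest for 32.9% of all genes tested. Library 2 thus carried much of the spread within ASO-L1. The direction of ZIC1 and IRX5 was the same in all 3 replicate numbers. Both genes passed the filter only through their ASO-L1 libraries, which fixed that direction in advance. The ASO-L1 over SO-L1 log2 differences within numbers 1, 2 and 3 were 2.75, 2.99 and 3.45 for ZIC1 and 1.64, 3.19 and 1.72 for IRX5 (on log2 CPM with a prior count).

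**Figure D2:**
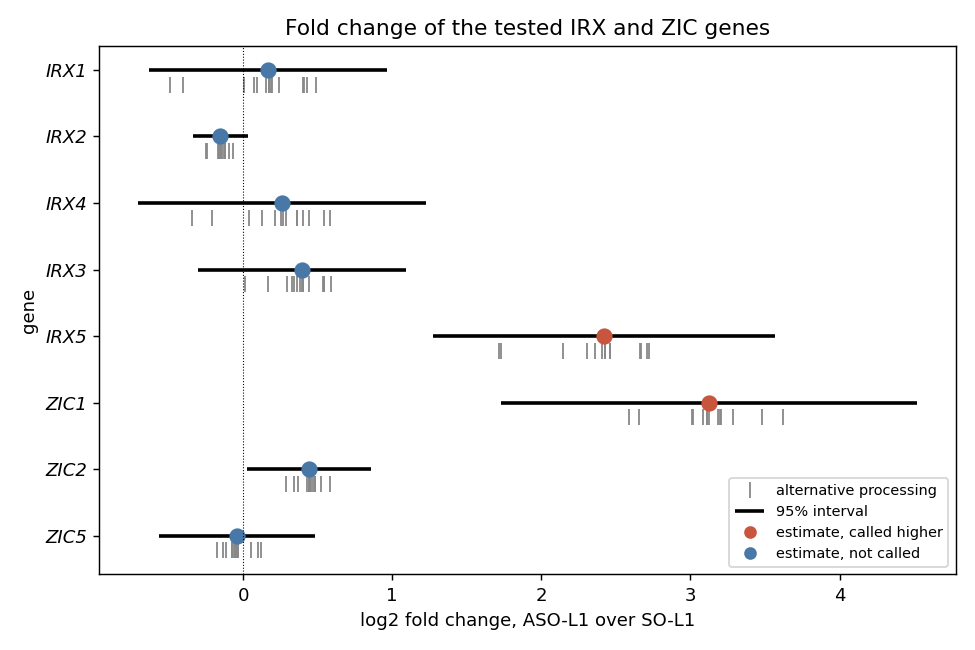
Log2 fold change, ASO-L1 over SO-L1, of the 8 tested members with its 95% interval, in red where called higher and in blue where not called; grey ticks give the estimate under each alternative way of processing. The intervals of ZIC1, IRX5 and ZIC2 lie above 0, that of ZIC2 by little (0.03), and the ticks of IRX1, IRX4 and ZIC5 fall on both sides of 0.

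Per kilobase of exon (GENCODE v29 exon union), the order of levels in SO-L1 was IRX2 (27.4 CPM per kb), ZIC2 (1.14), IRX1 (0.734), IRX3 (0.438), ZIC5 (0.304), IRX4 (0.288), IRX5 (0.109), ZIC1 (0.0232) and ZIC4 (0.0107). The libraries of neighbours in this order overlapped only for ZIC5 with IRX4 and for ZIC1 with ZIC4. In ASO-L1, IRX5 moved up to 0.599 CPM per kb, beside IRX3 at 0.578, and ZIC1 reached 0.205. There the ranges of neighbours overlapped from ZIC2 down to ZIC1, and only IRX2 above (24.7) and ZIC4 below (0.0242) were apart.

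Within a library, the ratio of counts of neighbouring genes is free of depth. The log2 ratio of IRX3 to IRX5 was 1.98, 2.20 and 1.68 in the SO-L1 libraries and 0.37, -0.30 and 0.25 in the ASO-L1 libraries. It was lower in every ASO-L1 library, by 1.85 on average. The exact two-sided permutation p was 0.1, the smallest that 3 against 3 libraries can give (0.5 adjusted over the 5 pairs compared). IRX5 passed the filter only through ASO-L1, so this ratio largely repeats its rise and is no separate result. The mean log2 ratio of ZIC2 to ZIC5 differed between groups by 0.51 (exact permutation p = 0.2) and that of ZIC1 to ZIC4 by 2.16 (p = 0.3), and in both the groups overlapped. IRX1 to IRX2 differed by 0.21 (exact permutation p = 1) and IRX2 to IRX4 by -0.31 (p = 0.6), and both changed sign without ASO-L1 library 2.

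**Figure D3:**
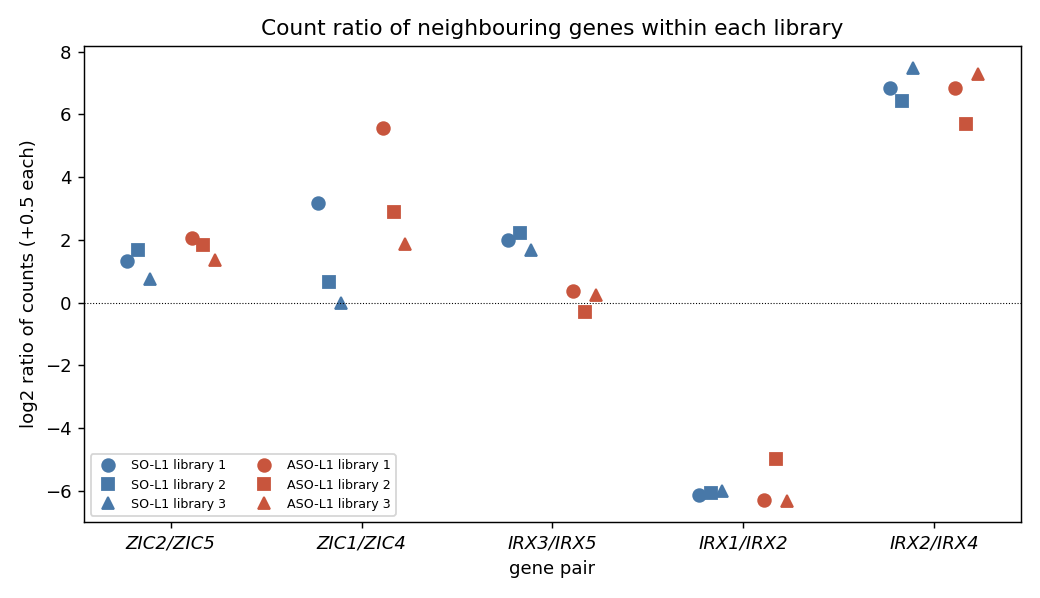
Log2 ratio of read counts (0.5 added to each) for 5 pairs of neighbouring genes in every library, SO-L1 in blue and ASO-L1 in red, with 1 symbol per replicate number. The groups are apart for IRX3 over IRX5, where SO-L1 lies between 1.68 and 2.20 and ASO-L1 between -0.30 and 0.37, and overlap in the other pairs. That separation largely repeats the rise of IRX5, which passed the filter only through ASO-L1.

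The authors' deposited table, with 21.4% of its 20964 genes under an adjusted p of 0.05, gave log2 fold changes of 2.99 for ZIC1 (adjusted p = 0.00662) and 2.13 for IRX5 (0.0191). The other 7 members were not under 0.05 there; in the authors' deposited table ZIC2 had 0.44 (0.114) and ZIC4 1.14 (0.512). In their batch-corrected log2 values, ZIC1 was at -2.76, -2.83 and -4.34 in SO-L1 and at -0.11, -0.03 and 0.03 in ASO-L1. IRX5 was at -1.41, -2.18 and -1.40 against 0.23, 0.75 and 0.28 in the same deposited values. The groups did not overlap for either gene, nor for ZIC2, at 1.83, 1.80 and 1.69 against 2.16, 2.19 and 2.30. The share of all genes without overlap was not computed for the batch-corrected values. ZIC1 and IRX5 had passed the filter only through ASO-L1, so their separation here adds no support.

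Genes with the most similar profile over the 6 libraries were sought among 11292 better expressed genes. The measure was the root mean square difference in log2 CPM after setting each gene to its SO-L1 mean. A prior count of 2 was added, which shrinks the profiles of genes with few reads, such as ZIC1 and IRX5. For ZIC1 these were MAFF, a small MAF factor (0.201), and EPHB3, an ephrin receptor (0.272). The log2 fold changes of MAFF and EPHB3 were 2.54 and 2.46, smaller than the 3.12 of ZIC1. For IRX5 they were LSMEM1 (0.171) and RASGEF1B (0.210). For ZIC2 they were EPC1 (0.0634), a subunit of the NuA4 acetyltransferase complex, and SLC6A15 (0.0682), an amino acid transporter. IRX3 lay nearest to the WNT receptor gene FZD10 (0.0601) and to COL17A1 (0.0715), and IRX2 to BCKDHA (0.0294) and DYNC2LI1 (0.0367). IRX1 had DDX60 (0.207) and TMEM187 (0.209), IRX4 had MAF (0.212) and IFIT1 (0.247), and ZIC5 had TCIRG1 (0.0802) and SAMD15 (0.0979). All profiles come from the same 6 libraries.

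Among other factors of the neural plate and its border, 8 of 20 tested genes rose and 0 fell, with a median log2 fold change of 0.46 (10 and 1 with the replicate block). For this list and those below, the shares over all genes tested were 18% higher and 15.7% lower. With the replicate block 45.7% of all genes were called in either direction. Of the 8, LHX2 and OTX1 passed the filter only through ASO-L1 and so had to differ, and the median of 0.46 includes them. Among the 18 other tested genes 6 rose. PAX6, a factor of eye and forebrain, rose from 1.13 ± 0.157 to 3.78 ± 1.05 CPM (1.74 ± 0.24; edgeR adjusted p = 0.00183), and SNAI2, a neural crest repressor, by 2.19 ± 0.41 on the log2 scale (0.00454). Both calls were kept without any single library. LHX2, a forebrain and eye factor, went from 0.151 ± 0.0202 to 0.711 ± 0.293 CPM, under the filter's level in every SO-L1 library. Border genes were mixed. MSX2 (2.08 ± 0.51, edgeR adjusted p = 0.0241), TFAP2A (1.29 ± 0.38, 0.0273) and SOX9 (1.31 ± 0.35, 0.0278) were called higher. How far MSX2, TFAP2A and SOX9 depend on single libraries was not examined. PAX3 (0.38 ± 0.37, edgeR adjusted p = 0.449) and MSX1 (1.04 ± 0.54, 0.169) were not called. With the replicate block MSX1 was called higher (1.03 ± 0.25; edgeR adjusted p = 0.00339), and its differences within replicate numbers 1, 2 and 3 were 0.92, 1.06 and 1.07.

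Of the GLI and GLIS zinc finger genes, the closest relatives of ZIC, 1 of 5 tested rose and 0 fell. That gene was GLIS2, from 26.0 ± 3.71 to 40.7 ± 6.48 CPM (0.65 ± 0.13; edgeR adjusted p = 0.00585). GLI1, the standard readout of Hedgehog signalling, was not called (-0.20 ± 0.08; edgeR adjusted p = 0.0741), but was called lower with the replicate block (0.0335). In the Hedgehog pathway 5 of 14 tested genes rose and 0 fell (6 and 1 with the replicate block): the kinesin KIF7 (0.73 ± 0.09), the Dispatched family gene DISP2 (1.78 ± 0.27), the GLI inhibitor SUFU (0.50 ± 0.11), the receptor GPR161 (0.55 ± 0.18) and SMO (0.21 ± 0.07). Their edgeR adjusted p ran from 0.00124 for KIF7 to 0.0454 for SMO. PTCH1 went from 158 ± 21.4 to 115 ± 23.4 CPM and was not called (-0.46 ± 0.16, edgeR adjusted p = 0.0580). It was the Hedgehog gene called lower with the replicate block (edgeR adjusted p = 8.2e-05). KIF7 and DISP2 were called without any single library. SUFU was lost without SO-L1 library 1 (adjusted p = 0.0504), and GPR161 without SO-L1 library 1 (0.121) or 2 (0.0990) or ASO-L1 library 1 (0.0622) or 2 (0.0899).

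TALE homeobox genes outside the IRX family were mixed, with 1 of 12 higher and 2 lower. PBX4 rose from 3.05 ± 0.136 to 5.79 ± 1.19 CPM (0.91 ± 0.17; edgeR adjusted p = 0.00431). PBX2, a cofactor of HOX proteins, fell (-0.39 ± 0.09; edgeR adjusted p = 0.00874), a call lost without SO-L1 library 3 (0.0504).

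Of 18 tested WNT targets and inhibitors, 2 rose and 4 fell. The secreted inhibitors DKK1 (2.16 ± 0.51; edgeR adjusted p = 0.0131) and SFRP2 (0.69 ± 0.16; 0.0118) rose. NKD2, a negative regulator (-0.50 ± 0.15; 0.0282), and TNFRSF19 (-0.59 ± 0.18; edgeR adjusted p = 0.0268) fell. DKK1 was lost without SO-L1 library 1 (0.0516) or 3 (0.0534) and SFRP2 without SO-L1 library 1 (0.0508). NKD2 was lost without SO-L1 library 1 (0.0716), 2 (0.0701) or 3 (0.0611) or ASO-L1 library 1 (0.117), and TNFRSF19 without SO-L1 library 1 (0.101) or 3 (0.0638) or ASO-L1 library 1 (0.0635) or 3 (0.0669).

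Of 6 tested heart factors and sarcomere genes, a setting in which IRX4 and IRX5 act, 3 rose and 1 fell, all near the threshold. NKX2-5 had a log2 fold change of 2.47 ± 0.79 (edgeR adjusted p = 0.0479), TNNT2 of 0.89 ± 0.27 (0.0279), MYL7 of 0.71 ± 0.25 (0.0465) and HEY2 of -0.28 ± 0.08 (0.0256). NKX2-5 reached the filter's level in 1 SO-L1 library and in 3 ASO-L1 libraries. It was thus tested only because of its ASO-L1 level, which limits what its call can show. Each call was lost on leaving out certain single libraries: NKX2-5 without SO-L1 library 1 (0.0919) or 3 (0.148) or ASO-L1 library 1 (0.0666) or 2 (0.0686), and HEY2 without SO-L1 library 1 (0.0633) or 3 (0.118) or ASO-L1 library 1 (0.0742). TNNT2 was lost without SO-L1 library 1 (0.0840), 2 (0.0657) or 3 (0.0591) or ASO-L1 library 3 (0.120). MYL7 was lost without SO-L1 library 1 (0.135), 2 (0.0743) or 3 (0.109) or ASO-L1 library 2 (0.142) or 3 (0.0808).

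**Figure D4:**
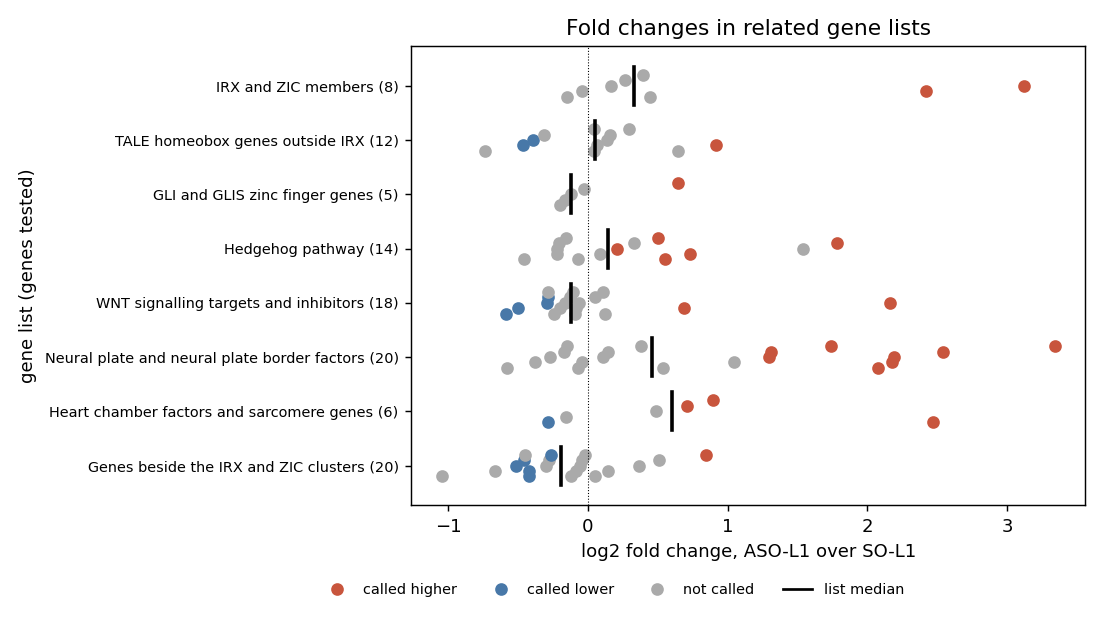
Log2 fold change, ASO-L1 over SO-L1, of every tested gene in the related lists, 1 point per gene (red called higher, blue called lower, grey not called) with the list median as a bar and the number tested in brackets. The neural plate list holds 8 red points and 0 blue, the genes beside the IRX and ZIC clusters 1 red and 5 blue. Over all genes tested 18% were called higher and 15.7% lower.

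Of 20 tested genes beside the clusters, 1 rose and 5 fell, with a median log2 fold change of -0.19, and with the replicate block 3 and 9. CRNDE, a long noncoding RNA gene that starts within 5 kb of IRX5 on the other strand in GENCODE v29, rose from 1.05 ± 0.265 to 1.92 ± 0.601 CPM (0.85 ± 0.29; edgeR adjusted p = 0.0462). The estimate is smaller than that of IRX5, a difference that was not tested. The call was lost without SO-L1 library 1 (0.0649), 2 (0.0904) or 3 (0.166) or ASO-L1 library 1 (0.0674) or 2 (0.147). MMP2, on the far side of IRX6, was not called (0.36 ± 0.14; edgeR adjusted p = 0.0740) but passed with the replicate block (0.00127). FTO, next to IRX3, fell from 24.9 ± 0.704 to 17.4 ± 1.92 CPM (-0.52 ± 0.10; edgeR adjusted p = 0.00452), a call kept without any single library.

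C5orf38, which starts within 5 kb of IRX2 on the other strand, fell from 10.3 ± 1.52 to 7.52 ± 0.811 CPM (-0.45 ± 0.14; edgeR adjusted p = 0.0318). The call was lost without SO-L1 library 1 (0.133) or 3 (0.112) or ASO-L1 library 1 (0.123). IRX2 itself was not called, with an estimate of the same sign (-0.15). Beside ZIC1 and ZIC4, PLSCR5 had 0 reads in all 6 libraries, and PLSCR1, a phospholipid scramblase, fell by 0.27 ± 0.07 (edgeR adjusted p = 0.0183), a call lost without SO-L1 library 1 (0.0618) or 3 (0.0708) or ASO-L1 library 1 (0.0579). Beside ZIC2 and ZIC5, CLYBL (-0.12 ± 0.25; edgeR adjusted p = 0.730) and PCCA (-0.45 ± 0.16; 0.0611) were not called, and PCCA passed with the replicate block (2.0e-04). RBL2 and AKTIP, further from IRX3 beyond FTO, were the remaining genes called lower.

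Markers of pluripotency and of other cell types were read beside these results. The summed level of 12 naive markers was 497 to 548 CPM in SO-L1 and 448 to 457 in ASO-L1 (2 higher, 5 lower of 12 tested), and that of 8 primed markers 437 to 467 and 629 to 697 CPM (4 higher, 0 lower of 7). VIM, an intermediate filament gene, carried most of that difference, from 130 ± 19.2 to 308 ± 45.1 CPM, while OTX2, PTPRZ1 and DPYSL2 were not called. The 6 general pluripotency markers summed to 4252 to 4624 and 3663 to 4257 CPM, with 0 called (0 higher and 4 lower with the replicate block). Neural progenitor markers (2 higher, 2 lower of 7) summed to 739 to 854 and 738 to 827 CPM, nearly all of it NES, and neural crest markers (2 higher, 1 lower of 7) to 213 to 242 and 237 to 247 CPM. Mesoderm markers (0 called of 6) summed to 21.2 to 25.8 and 24.1 to 26.8 CPM, and fibroblast markers (2 higher, 0 lower of 7) to 478 to 542 and 534 to 589 CPM. With the replicate block these counts were 2 higher and 4 lower for neural progenitor, 2 and 2 for neural crest and 4 and 0 for fibroblast markers. The primed marker DUSP6 and the neural progenitor marker POU3F2, both called higher, each reached the filter's level in only 1 SO-L1 library. No marker was at 0 in all libraries. PAX6, SNAI2, SOX1, OTX2, SOX10, FOXD3, TFAP2B and PAX3 stand in both a marker list and the neural plate list. SFRP2 stands in the WNT and primed lists, and GATA4 and HAND1 in the heart and mesoderm lists. The counts of these lists are therefore not independent. The part of such shifts in the changes of ZIC1 and IRX5 was not tested.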

How the data were processed

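Poly(A) RNA from 6 libraries was sequenced after a directional kit, per the labels. The authors deposited raw read counts per gene symbol with duplicates removed. The submitters' processing notes list TopHat2 2.0.13, Subread 1.5.0, featureCounts and Trim Galore 0.4.0 beside the build hg19. For the annotation and strand setting of the counting, the record is: not given in the sources used here. Abundant genes lose most when duplicates are removed without molecular barcodes. Also used were the authors' batch-corrected log2 values (threshold 0.2, per the table title) and their deposited comparison table, whose columns per the file headers are the average log2 level, the log2 fold change, the p-value before and after adjustment, and 2 score columns (moderated t and log odds). Its model is not stated. It was used for its values only.

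The counts were tested with edgeR 4.0.16 under R 4.3.3: TMM factors, filterByExpr at its default settings (count 10, total 15), by which 16873 of 53712 genes stayed, the robust quasi-likelihood fit without a replicate term, a two-sided test with Benjamini-Hochberg adjustment over all genes tested and calls under 0.05. A standard error is the size of the log2 fold change over root F, and 95% intervals use the t distribution on the fit's degrees of freedom. Depth was 23330875 to 31164287 counts per library. The biological coefficient of variation common to all genes was 10.2%. Exact permutation tests were used for the 5 pair ratios. The replicate numbers were taken as pairs because deviations from the group means correlated at 0.102, 0.377 and 0.211 within numbers 1, 2 and 3. Numbers 1 and 3 also correlated crosswise (0.156 and 0.162), so the block rests on a weak match for those. Replicates of a group differed beyond sampling noise.

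Alternatives were RLE factors, DESeq2 1.42.0, limma-voom (limma 3.58.1), no filter, a CPM above 1 in 3 libraries, the replicate block and leaving out libraries. Members and 15 gene lists were chosen with earlier results of these data known. Named genes are all members, up to 4 called genes of smallest p in each list, the tested genes beside the clusters and the 2 genes most alike each member. SMO, GLI1, PTCH1, PAX3, MSX1, MSX2, TFAP2A, SOX9, OTX1 and single markers were named after their values were seen. Some genes that the rule takes are not reported here. Exon lengths come from GENCODE v29 and promoter sequences from RefSeq (GRCh38.p14), while the counts use hg19.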

Additional observations from a re-analysis of the deposited data

How the results depend on the processing

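ZIC1 and IRX5 were the members called with RLE factors, DESeq2, limma-voom and no filter, as in the edgeR fit reported. A filter of CPM above 1 in 3 libraries removed both, with IRX4, and left 0 members called. With the replicate block 3 were called (ZIC2 added). Leaving out libraries gave 1 to 4 members: only IRX5 without replicate 1 of both groups, and ZIC1, IRX5, ZIC2 and IRX2 without SO-L1 replicate 2 or replicate 2 of both. ZIC1 kept its call in 13 of 14 alternatives and IRX5 in 14 of 14. Signs differed in 2 of 15 alternatives for IRX1, 2 of 14 for IRX4 and 3 of 15 for ZIC5, and in 0 for the other members. The block changed no other member's call, but added IRX6, GLI1, PTCH1, MSX1, MMP2 and PCCA among other genes named. Among the called list genes that were recomputed, DESeq2 lost CRNDE, MYL7, TNNT2 and TNFRSF19, limma-voom lost CRNDE and MYL7, and the fit without a filter lost MYL7 and NKX2-5. Without replicate 1 of both groups DISP2, KIF7, PAX6 and SNAI2 were among those still called. Over the whole table the count of 5684 called genes ranged from 1183 (without replicate 1 of both groups) to 7197 when libraries were left out, among them 3166 and 2975 on dropping SO-L1 replicate 1 or SO-L1 replicate 3, and 2820 on dropping both libraries numbered 3. The cause of these shifts was not tested. Leaving out single libraries moved the log2 ratio difference of IRX1 to IRX2 between -0.23 and 0.43 and that of IRX2 to IRX4 between -0.65 and 0.15, with the sign turned in both without ASO-L1 replicate 2. A lone remaining library is nowhere used; with 2 libraries in an arm the spread is shared across genes. Depth limits ZIC4 (13 reads) and the SO-L1 levels of ZIC1 (10 reads) and IRX5 (24 reads).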
